A study of Homo sapiens with 4 samples.

Results

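Kinetochores are protein assemblies on centromeric chromatin that attach each chromosome to spindle microtubules, and the genes described here encode their subunits, the factors that load the centromeric histone, and the spindle checkpoint that reads attachment. Members were taken by symbol from a list of 47 such genes, of which 36 were among the 6828 genes of the deposited table. The 11 others (CENPC, CENPQ, CENPS, CENPT, MIS12, PMF1, SPC25, SKA1, SPDL1, MAD1L1 and MAD2L1BP) were not analysed here. Every gene in that table had already passed an adjusted p of 0.05 in the comparison of the study itself. The 36 are therefore those members that differed there, and their count is not a measure of how many members responded. Adjusted p-values given below come from the same libraries and hold only among genes already selected in this way.

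The comparison asked which transcripts depend on USP2-AS1, a long noncoding RNA transcribed antisense to USP2. A549, an established epithelial line of human lung adenocarcinoma, was infected with lentivirus carrying a control hairpin (shctrl) or a hairpin against the RNA (shUSP2-AS1), and poly(A) RNA was sequenced 72 hours after infection from 2 libraries per group. The replicates are biological according to the methods, but whether they came from separate infections is not given, and which hairpin against USP2-AS1 was used is not given either. On the listed genes the shctrl libraries held 12330115 and 10772788 reads and the shUSP2-AS1 libraries 11715962 and 14120472, and members were covered by 22 to 4824 reads per library. Values are normalized read counts, which are reads divided by a size factor per library.

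USP2-AS1 itself was counted with 24 and 22 reads in shctrl and with 2 and 7 in shUSP2-AS1 (log2 fold change -2.39, SE 0.56, limma adjusted p = 0.000597). E2F1, the transcription factor of the S-phase programme that was also followed in the study, changed by -2.12 on the log2 scale. All 5 proliferation markers examined were called lower, with MKI67 at -2.39, TOP2A at -2.46, CCNA2 at -2.42, CCNB1 at -2.25 and PCNA at -1.01. Of 8 epithelial markers 4 were in the table, where KRT7, KRT8 and KRT18 changed by -0.49 to -1.05 and KRT19 by 0.75. Of 8 markers of other cell types 2 were listed, ACTA2 and COL1A1, both called higher at 1.79 and 1.05. In bulk RNA, fewer cells in the phases of the cycle that transcribe these genes and less RNA per cell cannot be told apart.

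The kinetochore is built in layers. CENP-A nucleosomes replace ordinary nucleosomes at the centromere and are recognized by an inner network of CENP proteins called the constitutive centromere associated network (CCAN). The CCAN recruits the outer KNL1, MIS12 and NDC80 complexes (the KMN network), whose NDC80 arm binds microtubules and is strengthened by the SKA complex. Unattached kinetochores recruit MAD and BUB proteins, which delay anaphase until every chromosome is attached. Many of these genes are transcribed mainly late in the cell cycle, through promoter elements that include the CHR element (cell cycle genes homology region) with the letters TTTGAA and the CCAAT box bound by NF-Y.

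Among the 36 genes, 31 were called lower after USP2-AS1 knockdown, which required an adjusted p below 0.05 and a fold change of at least 2, and 0 were called higher. Over all 6812 genes tested with limma, 13.5% were called lower and 16.1% higher (922 and 1098 genes), a balance that turned to 1140 lower and 942 higher with DESeq2 and its own size factors. At an unadjusted p below 0.05 limma gave 0 members higher, and edgeR and DESeq2 on the recovered reads also called 0 higher. Without the fold threshold all 36 passed as lower, against 49.4% of the genes tested. In all 36 both shUSP2-AS1 libraries lay below both shctrl libraries, a separation that 49.3% of all genes tested showed in that direction. In either direction the groups did not overlap in 6811 of the 6812 genes tested, so separation alone does not set the members apart. The median log2 fold change was -2.0, against 0.19 over all genes tested, and the median gene kept 24.7% of its shctrl level, with a range from 7.24% for SKA3 to 74.4% for CENPB. 24 of the 36 lay at or below -1.73, the bound of the lowest 5% of the table, and 18 were lower by more than 4-fold. The 36 genes lie on 19 chromosomes, and across them the level per kb in shctrl and the log2 fold change were weakly related (Pearson r = 0.19, Spearman rho = 0.11, n = 36 genes that share the same 4 libraries).

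**Figure D1:**
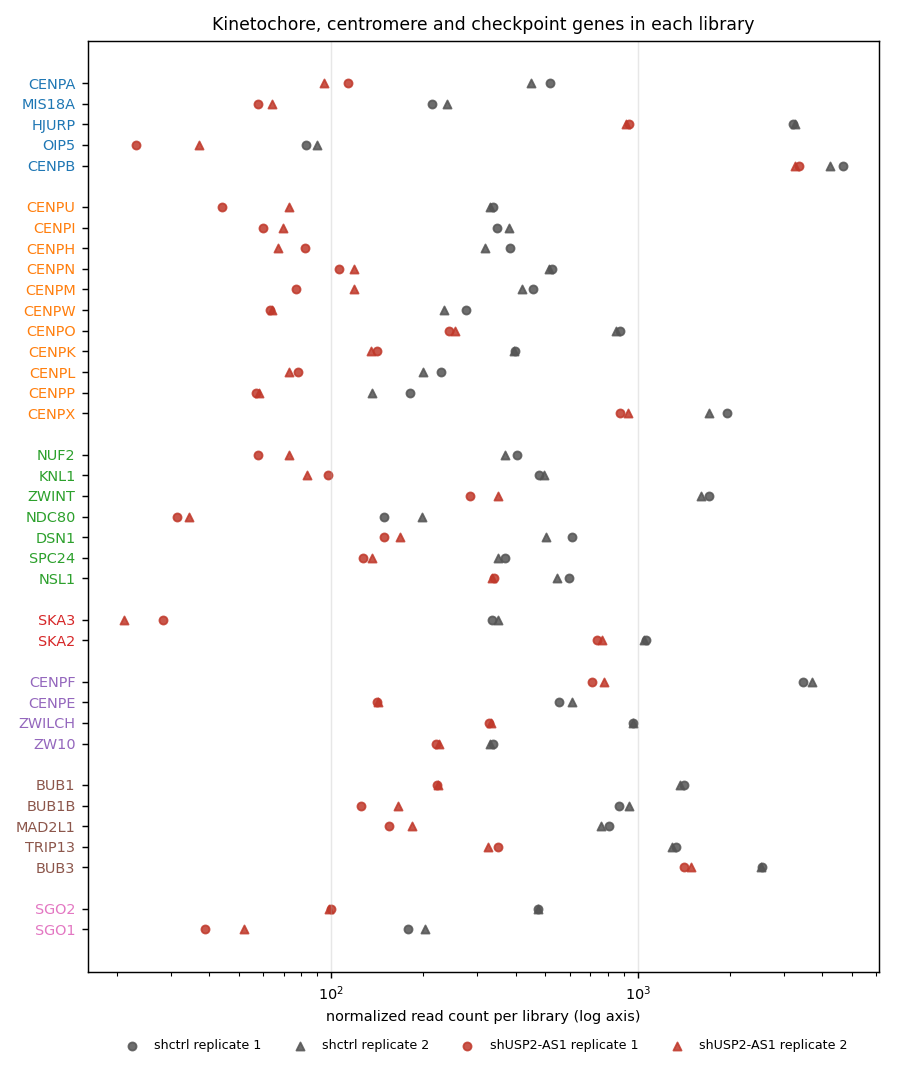
Normalized read count (horizontal, log axis) of each of the 36 listed genes in each of the 4 libraries, with genes grouped by role through the colour of the name and ordered within a role by log2 fold change. In every gene both red shUSP2-AS1 points lie left of both grey shctrl points, with the widest gap in SKA3 and the narrowest shifts in CENPB and SKA2.

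Promoter sequences of 300 bases, from 250 before to 50 after the annotated start, were available from RefSeq (GRCh38.p14) for 30 of the 36 genes. BUB3, CENPH, CENPL, CENPM, KNL1 and MIS18A had no entry. On either strand TTTGAA stood in 12 of the 30 (40%), against 15.4% of 27305 promoters and 9.53% of the 5214 promoters of genes tested here. In 10 of the 12 it began within 50 bases of the start. The related letters TTTAAA stood in 4 of the 30 (13.3%, against 12.3% of all promoters and 7.36% of those of genes tested), and CCAAT in 18 (60%, against 35.7% and 36.7%). At least 1 of 5 E2F-type motifs (TTTCCCGC, TTTGGCGC, TTTCGCGC, TTTGCCGC and TTCCCGCC) stood in 6 of the 30 (20%, against 5.57% and 9.19%), where TTTCCCGC and TTCCCGCC can overlap each other. Matches of the other motifs may share end bases. The 12 genes with TTTGAA had a median log2 fold change of -2.24 with 11 called lower, and the 18 without it had a median of -1.68 with 15 called lower. These shares and medians describe letters in a window and were not tested.

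Windows are shown for the 8 genes with TTTGAA nearest to the start. These genes fall in the outer kinetochore, SKA, centromere and checkpoint branches whose levels are given next. Each window is written in the direction of the gene. Capitals mark TTTGAA or its reverse complement TTCAAA and CCAAT or its reverse complement ATTGG. NDC80 (chr18:2571504-2571565, plus strand), SKA3 (chr13:21176544-21176605, minus strand), CENPN (chr16:81007167-81007228, plus), CENPA (chr2:26785988-26786049, plus), NUF2 (chr1:163321920-163321981, plus), BUB1B (chr15:40160996-40161057, plus), MAD2L1 (chr4:120066819-120066874, minus) and ZWINT (chr10:56361279-56361340, minus) are given in this order. The marked 6 letters begin at -3, -3, 4, -18, 17, -23, 25 and -31, counted from 1 at the start with -1 just before it. The start is that of the promoter entry used for each gene, and other starts were not searched. In NUF2 and CENPA it lies well inside the deposited gene coordinates given below.
NDC80: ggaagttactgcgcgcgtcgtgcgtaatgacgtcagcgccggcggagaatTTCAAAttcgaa
SKA3: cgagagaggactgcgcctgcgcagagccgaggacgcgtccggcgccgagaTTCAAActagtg
CENPN: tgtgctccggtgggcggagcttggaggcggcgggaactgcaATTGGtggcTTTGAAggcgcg
CENPA: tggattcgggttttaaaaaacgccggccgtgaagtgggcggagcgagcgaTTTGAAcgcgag
NUF2: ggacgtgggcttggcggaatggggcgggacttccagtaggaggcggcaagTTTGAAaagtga
BUB1B: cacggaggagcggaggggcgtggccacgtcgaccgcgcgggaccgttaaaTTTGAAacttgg
MAD2L1: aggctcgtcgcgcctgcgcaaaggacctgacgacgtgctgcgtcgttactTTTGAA
ZWINT: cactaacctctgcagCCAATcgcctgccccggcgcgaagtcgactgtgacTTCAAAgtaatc
In CENPN and ZWINT a CCAAT box stands upstream of the TTTGAA letters within the same window, and the other 6 windows hold none.

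At the base of the kinetochore, the centromeric nucleosome and its loading factors were all in the table, and 4 of the 5 were called lower. CENPA, the histone H3 variant that marks the centromere (ENSG00000115163, chr2:26764289-26801067 in the deposited coordinates), had 519 and 448 normalized reads in shctrl and 114 and 95.1 in shUSP2-AS1. Both knockdown libraries lay far below either control, and the mean fell from 484 ± 49.9 to 104 ± 13.1 (SD, n = 2; log2 fold change -2.20, SE 0.13, limma adjusted p = 6.2e-11). MIS18A, a subunit of the Mis18 complex that licenses centromeres for new CENP-A, went from 213 and 240 to 57.8 and 64.3 (-1.87). HJURP, the chaperone that deposits CENP-A, was among the most abundant members, with 3206 and 3247 normalized reads in shctrl and 939 and 917 after knockdown (-1.80). OIP5, the other Mis18 subunit, had the lowest counts of the group (83.1 and 90.1 against 23.1 and 37.0, log2 fold change -1.53). Of its annotated exonic bases 63.2% are shared with the antisense gene OIP5-AS1 and 29.3% with the protein-coding gene NUSAP1, also on the opposite strand. The library protocol names no step that marks strand, so reads of OIP5 and of these genes cannot be told apart there.

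CENPB, which binds a short DNA motif in alpha satellite repeats, was the exception of this group and the member nearest to 0 among all 36. It had 4661 and 4252 normalized reads in shctrl and 3361 and 3270 in shUSP2-AS1, so that the groups did not overlap but 74.4% of the level was left (log2 fold change -0.43, SE 0.05, limma adjusted p = 1.19e-06). Its change was smaller than the 2-fold needed for a call. CENPB is the most abundant of the group, and the summed level of the 5 genes stood at 52.3% of shctrl while their median log2 fold change was -1.80.

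Of the inner CCAN 11 of 15 genes were listed. All 11 were called lower, with log2 fold changes from -2.53 to -1.02 and a median of -1.98. The largest changes were in CENPU, of the CENP-OPQUR branch, and CENPI, of the CENP-HIKM branch. CENPU had 337 and 329 normalized reads in shctrl and 44.2 and 73.1 in shUSP2-AS1, and CENPI had 347 and 380 against 59.9 and 69.6. CENPU kept 17.6% of its level and CENPI 17.8%, and their knockdown libraries lay far below either control. By branch, the 4 HIKM genes (CENPH -2.23, CENPI -2.47, CENPK -1.52 and CENPM -2.18) had a median of -2.20. CENPL and CENPN, which form the arm that contacts the CENP-A nucleosome, changed by -1.49 and -2.20. Of CENP-OPQUR, CENPO changed by -1.79 and CENPP by -1.43 beside CENPU. Reads of CENPP and CENPO are uncertain in the same way as those of OIP5, since 39.9% of the exonic bases of CENPP lie opposite IPPK and 27% of those of CENPO opposite ADCY3. For CENPU 14.9% lie opposite PRIMPOL, and for CENPN 12.6% are shared with a long noncoding RNA on the same strand.

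CENPX, a small histone-fold protein of the CENP-TWSX branch that also acts with FANCM in DNA repair, stood at the upper end of the network. It had 1957 and 1712 normalized reads in shctrl and 877 and 932 in shUSP2-AS1, which is 49.3% of the control level (log2 fold change -1.02, SE 0.07, limma adjusted p = 4.88e-10). The call rests on a change next to the 2-fold threshold, and it was lost without shctrl replicate 1 (-0.92) and without shUSP2-AS1 replicate 1 (-0.97). Its partner CENPW, the other member of that branch in the table, changed by -1.98.

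Of the outer KMN network 7 of 10 genes were listed and 6 were called lower, with a median of -2.35. NUF2, which pairs with NDC80 to form the microtubule-binding end (ENSG00000143228, chr1:163266576-163355764), had 405 and 368 normalized reads in shctrl and 57.8 and 73.1 in shUSP2-AS1. NDC80 (ENSG00000080986, chr18:2571557-2616635) had 149 and 198 against 31.5 and 34.3. The ratio between the shctrl libraries was larger in NDC80 (1.33) than in any other listed member, and both knockdown libraries lay far below either (NUF2 -2.55, SE 0.15; NDC80 -2.35, SE 0.21; limma adjusted p = 5.81e-11 and 1.15e-08). KNL1, the scaffold on which BUB proteins dock, had 477 and 496 normalized reads against 97.8 and 83.6, and its partner ZWINT had 1710 and 1611 against 284 and 350. This pair kept 18.6% and 19.1% of the control level. SPC24, the base of the NDC80 complex, changed less, by -1.44. In the MIS12 complex, which joins the outer layer to the CCAN, DSN1 changed by -1.81 and NSL1 was not called. NSL1 had 595 and 545 normalized reads in shctrl and 340 and 334 in shUSP2-AS1, so 59% was left (-0.76, SE 0.09, limma adjusted p = 6.23e-07).

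Within the SKA complex, which helps NDC80 hold on to depolymerizing microtubule ends, the 2 listed subunits lay near opposite ends of the range. SKA3 (ENSG00000165480, chr13:21153595-21176552, minus strand) had 334 and 349 normalized reads in shctrl and 28.4 and 21.1 in shUSP2-AS1, from 346 and 318 reads against 27 and 24. It fell to 7.24% of control, the lowest share among the members, and ranked 7 from the lowest of the 6812 genes tested (342 ± 10.7 against 24.8 ± 5.14, SD, n = 2; log2 fold change -3.75, SE 0.19, limma adjusted p = 7.72e-12). SKA2 (ENSG00000182628, chr17:59109857-59155260, minus strand) had 1061 and 1051 normalized reads in shctrl and 738 and 767 after knockdown. It kept 71.3% and was not called (-0.49, SE 0.07, limma adjusted p = 3.71e-06). Its groups did not overlap, as in 6811 of the 6812 genes tested. The summed level of both genes, mostly SKA2, stood at 55.6% of shctrl.

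In the fibrous corona, the outermost layer of unattached kinetochores, 3 of 4 listed genes were called lower. CENPF, a large coiled-coil protein that accumulates in G2, had 3458 and 3693 normalized reads in shctrl and 710 and 777 in shUSP2-AS1 (-2.26), and CENPE, the kinesin that moves chromosomes to the spindle equator, had 553 and 609 against 141 and 142 (-2.03). CENPF kept 20.8% and CENPE 24.3%, with little spread between libraries. The RZZ complex, which recruits dynein and the MAD1 and MAD2 proteins, was split. ZWILCH changed by -1.55, while ZW10, which also works in membrane traffic between the endoplasmic reticulum and the Golgi, had 338 and 330 against 220 and 225 normalized reads and was not called (-0.59, SE 0.11, limma adjusted p = 7.59e-05).

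Among the spindle checkpoint genes, 4 of the 5 listed were called lower. BUB1, the kinase that marks centromeric histone H2A and recruits other checkpoint proteins (ENSG00000169679, chr2:110637528-110678063), had 1418 and 1377 normalized reads in shctrl and 222 and 223 in shUSP2-AS1 (-2.65, SE 0.08, limma adjusted p = 1.36e-14). BUB1B, which encodes BUBR1 of the mitotic checkpoint complex (ENSG00000156970, chr15:40161023-40221123), had 871 and 937 against 125 and 165 (-2.65, SE 0.12, limma adjusted p = 1.49e-12). BUB1 kept 15.9% and BUB1B 16.0% of the control level. MAD2L1, which encodes the MAD2 protein that holds CDC20 (ENSG00000164109, chr4:120055623-120066858), had 803 and 762 normalized reads against 155 and 183 (-2.21), and TRIP13, the ATPase that remodels MAD2, changed by -1.96. BUB3, the WD40 protein that BUB1 and BUBR1 bind, was the gene of this group that was not called. It had 2552 and 2525 normalized reads in shctrl and 1411 and 1490 in shUSP2-AS1, so 57.1% was left (-0.81, SE 0.06, limma adjusted p = 5.45e-10).

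The shugoshins, which protect centromeric cohesin until anaphase, were both called lower. SGO2 had 473 and 471 normalized reads in shctrl and 99.9 and 98.6 in shUSP2-AS1, and SGO1 had 179 and 202 against 38.9 and 51.9. Their log2 fold changes were -2.24 and -2.06, and their summed level, 21.8% of shctrl, was the lowest of the 7 role groups. For SGO1 15.8% of the exonic bases lie opposite SGO1-AS1, so its reads are uncertain in the same way as those of OIP5.

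**Figure D2:**
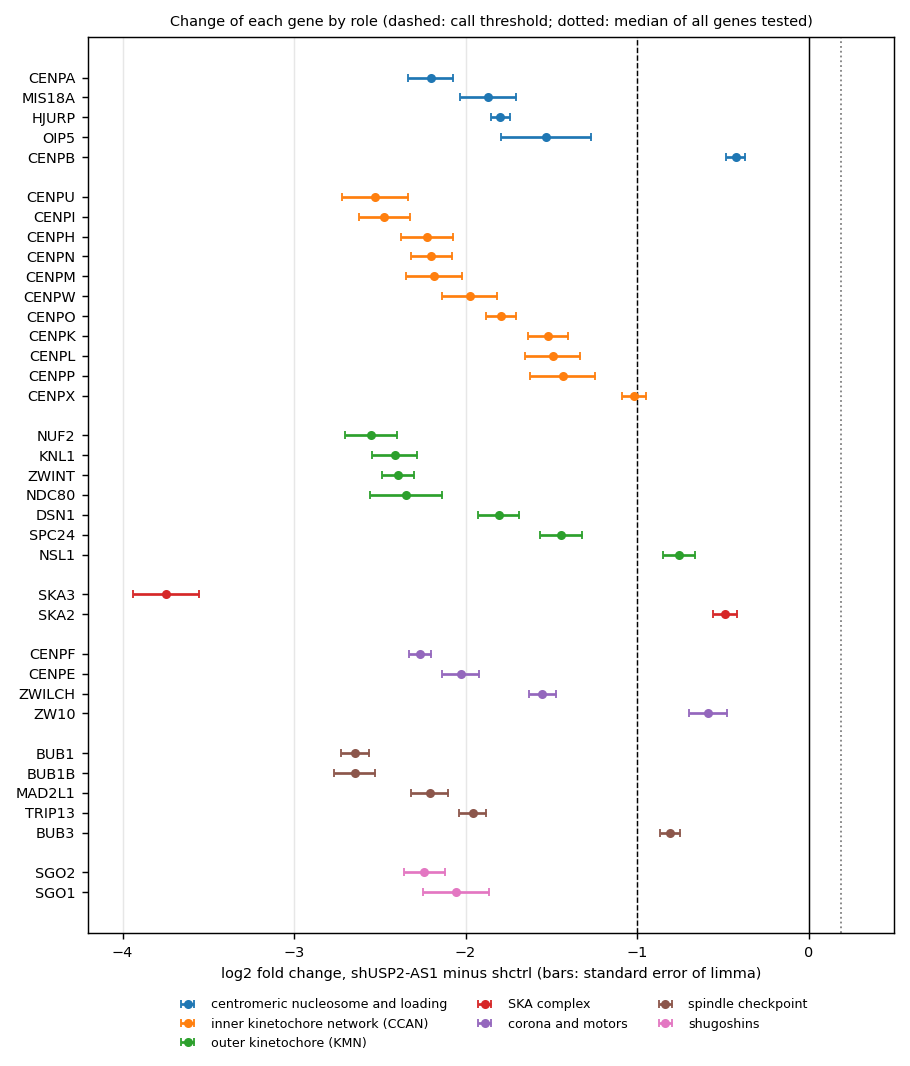
Log2 fold change of each listed gene (horizontal, shUSP2-AS1 minus shctrl, bars are the standard error from limma), coloured by role. The dashed line at -1 is the threshold for a call and the dotted line the median of all genes tested (0.19), and in 5 of the 7 roles 1 gene (CENPB, NSL1, SKA2, ZW10 or BUB3) lies between -1 and 0.

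Set side by side, the summed level that was left was 52.3% for the nucleosome and loading factors, 33.1% for the CCAN, 27.0% for KMN, 55.6% for SKA, 26.3% for the corona and motors, 33.5% for the checkpoint and 21.8% for the shugoshins. In each role group both shUSP2-AS1 sums lay below both shctrl sums. The medians per gene were closer to each other than the sums (from -1.79 to -2.35), because the sums follow the most abundant gene. Subunits are not replicates of a group, so no test between roles was made. The 5 genes that were not called were the least changed member of 5 different roles, while the listed CCAN genes and the shugoshins had none. Only 11 of the 15 CCAN genes were listed. CENPC, CENPQ, CENPS and CENPT were not analysed, so the lack of an uncalled gene is not a trait of the CCAN.

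**Figure D3:**
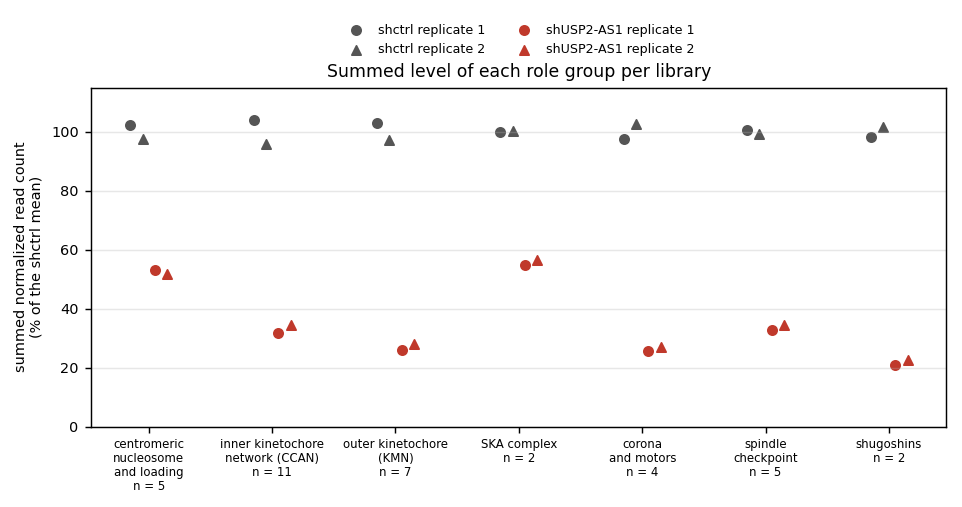
Summed normalized read count of the listed genes of each role in each library, as a percentage of the mean of both shctrl libraries. The shugoshins have the lowest shUSP2-AS1 points (21.8% on average) and the SKA complex and the nucleosome group the highest (55.6% and 52.3%).

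Whether 2 genes of the same complex or role moved unequally was examined through the difference of their log2 levels per kb in each library, for 10 pairs. Further planned pairs with SKA1, SPC25, MAD1L1 or CENPC could not be made, because these genes were not listed. This left 3 planned pairs, and 7 were chosen after it was known which members are in the table. The planned pairs SKA3 with SKA2 and BUB1B with BUB3 set a called gene against one not called. So do the added pairs DSN1 with NSL1, ZWILCH with ZW10 and CENPA with CENPB. The separation of these and of the other pairs restates the values per gene and is no further evidence. SKA3 minus SKA2 gave -1.55 and -1.47 in shctrl, against -4.45 and -4.89 after knockdown, so SKA3 was the lower gene in each and by more after knockdown. The change in the difference was -3.16 on the log2 scale. BUB1B against BUB3 went from -0.68 and -0.55 to -2.58 and -2.27, a change of -1.81, and CENPA against CENPB changed by -1.77. Each of these pairs moved further apart, with no overlap between groups. DSN1 against NSL1, ZWILCH against ZW10 and CENPW against CENPX changed by -1.06, -0.96 and -0.96, and SPC24 against NDC80 by 0.83. NDC80 against NUF2 (0.25), SGO1 against SGO2 (0.19) and ZWINT against KNL1 (-0.09) had changes within or close to the spread between libraries, and their groups overlapped. The exact permutation test over 2 against 2 libraries (two-sided) gave p = 0.33 for the 7 separated pairs, which is the smallest p it allows, and 0.667, 0.667 and 1 for the other 3. After Benjamini-Hochberg adjustment over the 10 pairs the values were 0.476, 0.741 and 1, and this test cannot go below 0.05 with 2 libraries against 2.

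**Figure D4:**
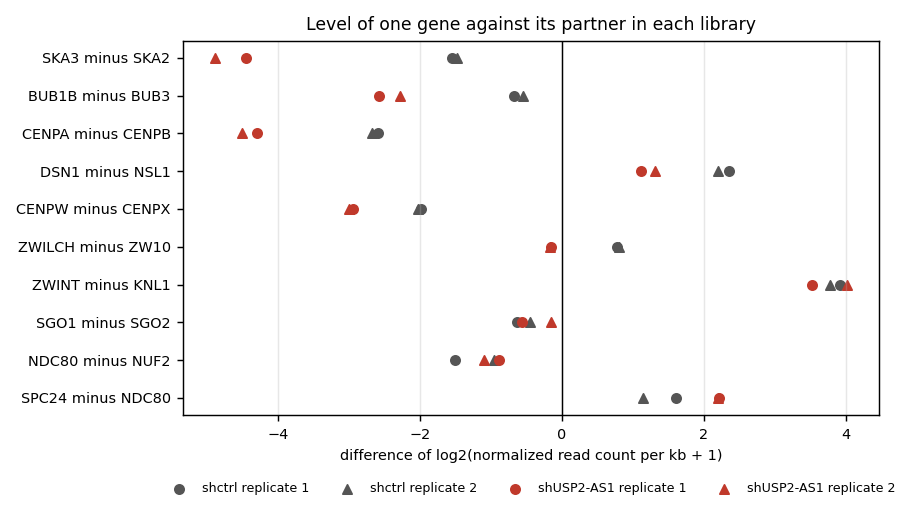
Difference of log2(normalized read count per kb + 1) between the genes of each of 10 pairs, in each library. In 7 pairs the red shUSP2-AS1 points and the grey shctrl points do not overlap, most widely for SKA3 minus SKA2 (from about -1.5 to below -4.4), and in ZWINT minus KNL1, SGO1 minus SGO2 and NDC80 minus NUF2 they do.

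Outside the members, 31 of 40 other kinetochore and spindle genes on a list of partners were in the table. Like the members, these 31 had already passed the adjusted p of the study. Of them 18 were called lower and 0 higher, against 13.5% and 16.1% of all genes tested. Their median log2 fold change was -1.39, against 0.19 over all genes tested. At an unadjusted p below 0.05 limma gave 1 partner gene higher, and edgeR and DESeq2 called 0 higher. The lowest were CDC20, the activator of the anaphase-promoting complex that the checkpoint restrains (-2.86), ERCC6L, the PICH translocase of anaphase bridges (-2.69), and CDCA8, which encodes borealin of the chromosomal passenger complex (-2.62). The highest were DYNLT3, a dynein light chain that binds BUB3 (0.95), PPP2R5C, a regulatory subunit of phosphatase PP2A (-0.25), and PPP1CC, a catalytic subunit of phosphatase PP1 (-0.30), and none of these passed the fold threshold. The partner list also holds further subunits of complexes described above, of which 2 are given here, chosen after their values were seen. KNTC1, the ROD subunit of RZZ, changed by -1.74, and ITGB3BP, which encodes CENP-R, by -1.39.

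On the published phase lists that Seurat uses to score the cell cycle, 8 of the 36 genes appear. CENPU is on the S list and 7 are on the G2/M list, where all 7 were called lower with a median of -2.26. The 28 genes on neither list had a median of -1.84 with 23 called lower, and they include each of the 5 that were not called. Levels of the proliferation markers moved with these genes in the same libraries, and their part in the result was not tested.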

How the data were processed

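RNA-seq of A549 cells was analysed from 2 shctrl and 2 shUSP2-AS1 libraries. The submitters' processing notes name HISAT2 (2.0.5), featureCounts (1.5.0-p3), DESeq2 (1.20.0) and hg38. For each gene the authors deposited 1 normalized signal a library, made from its reads and the size factor of that library. Further columns hold the gene length and coordinates, which were used, and group means, fold changes and p-values of the authors' own comparison, which were not. The table holds 6828 genes, all past an adjusted p of 0.05 in that comparison. Columns named for a scrambled control and for a hairpin were assigned through the name of the table and a heading of the study, and 0 columns belonged to no sample. Dividing by the value of 1 read gave whole reads (within 0.01) for 100% of values. These sums cover the listed genes and not whole libraries, and no counting interval is given.

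Genes whose mean over the libraries reached 10 (6812 in all) were fitted as log2(value + 1) in limma (3.58.1, R 4.3.3; lmFit, eBayes with trend) with Benjamini-Hochberg adjustment over all of them. On this scale the change of low genes is understated. Genes were called at an adjusted p below 0.05 and a log2 fold change of at least 1 in size. Since the listed genes had been selected on the same libraries, the adjusted p alone excluded almost none of them. Without the fold threshold 3362 genes were lower and 3449 higher. The recovered reads were tested with edgeR (4.0.16; 940 genes lower and 1085 higher) and DESeq2 (1.42.0; 1140 lower and 942 higher with its own size factors). The fit was tested on simulated data. The libraries of a group were not copies of each other, with a chi-square per degree of freedom of 3.72 in shctrl and 3.83 in shUSP2-AS1. Levels between genes were compared per kb of the deposited gene length. GENCODE release 44 gave shared exonic bases.

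Members and lists were chosen with earlier results of these data known. Per-library values are given, in each role, for the 2 members with the largest decrease and the one nearest to 0, for those not called, and for CENPA, NDC80, SKA2, SKA3, BUB1, BUB1B and MAD2L1. Others beyond this rule (HJURP, OIP5, ZWINT) were added after their values were seen. Of the partner genes, the 3 lowest and the 3 highest are named.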

Additional observations from a re-analysis of the deposited data

How the results depend on the processing

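The number of members called lower was 31 and stayed between 28 and 31 under every alternative with a fold threshold, and 0 were called higher under any. The replicate block gave 31, and changed the call of no member. In this balanced layout it leaves each log2 fold change as it was, so a call could change only through the adjusted p. Whether same-numbered libraries were prepared together is not given. Deviations of same-numbered libraries correlated at -0.04 across the genes tested. These genes had been selected for a difference between groups, which favours genes whose replicates lie close. The value therefore cannot exclude a shared replicate effect. RLE scaling lowered the median of all genes from 0.19 to 0.07 with 1143 genes called lower and 930 higher in place of 922 and 1098, and upper quartile scaling raised it to 0.25. The median over the members was then -2.12 and -1.94, and -2.13 with DESeq2 and its own size factors. Leaving out 1 library at a time gave -2.02 to -1.92. With at least 10 in every library the median of all genes was -0.15. A test against a fold change of 2 left 28 members, without CENPX (adjusted p of 1), OIP5 (0.157) and CENPP (0.0985), and CENPX also missed the call with upper quartile scaling (-0.96). Over all genes that test called 523 lower and 541 higher, and without a fold threshold 3362 and 3449. Without a fold threshold 2 SKA genes were lower, 30 partner genes lower and 1 higher, and 1 partner gene was also called higher with upper quartile scaling (range 0 to 1 over the libraries left out, 1 without shUSP2-AS1 replicate 2). The difference of NDC80 and NUF2 (0.25) ranged from -0.02, without shctrl replicate 1, to 0.51 over the libraries left out. The cause of these shifts was not tested.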
